A study of Mus musculus with 18 samples.

Results

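Expression of 40 listed fibroblast, collagen and extracellular matrix genes was examined in ERBB2-driven mammary tumours of mice with and without Snai2. The genes were taken by symbol: a gene counted as measured when a probe set of the array was annotated to it alone, and the brightest such probe set was kept. By that rule 39 of the 40 were measured, each by 1 probe set, among 19938 genes in all. Loxl2, a lysyl oxidase family enzyme, was annotated only on a probe set shared by several genes and has no value here. By role the 39 were 4 fibrillar collagen chains, 4 basement membrane collagens, 6 beaded, network and FACIT collagens (chains that sit on or between fibrils), 11 matrix glycoproteins, 4 proteoglycans, 4 enzymes and chaperones of collagen processing, and 6 fibroblast surface and cytoskeletal markers.

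The study profiled 18 tumours, 1 per array, on single-colour Affymetrix arrays. Every mouse carried the MMTV-neu transgene, in which a mammary tumour virus promoter drives the ErbB2 proto-oncogene, from an FVB/N line. The knockout (KO) was the Snai2tm2Grid allele from a B6;129S1 line, and the comparison animals had intact Snai2 (WT). Mice were grouped further by parity and by whether they had metastasis. The groups were KO parous with metastasis (3 arrays), KO parous without metastasis (3), KO nulliparous with metastasis (1), KO nulliparous without metastasis (3), WT parous with metastasis (4) and WT nulliparous with metastasis (4). No WT mouse lacked metastasis, and KO and WT may differ in strain background, so these cannot be told apart from genotype in several comparisons. Ages are not given in the sources used here.

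Fibroblasts build most of the collagenous scaffold of a tumour. Type I and III collagens assemble into fibrils, small leucine-rich proteoglycans such as decorin and lumican coat and space them, and lysyl oxidases cross-link them, while type IV collagen forms the sheets beneath epithelium and around vessels. Snai2, also called Slug, is a zinc-finger repressor of the Snail family that binds E-box sequences, and the study's title places its question outside the tumour cell.

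The arrays were read as deposited log2 values, and array medians lay between 7.60 and 7.67. In the group KO parous with metastasis, replicates 2 and 3 differed by less than any other pair of arrays. The SD of their difference over 10252 genes was 0.102, and of all 153 pairs the next smallest was 0.285, so they were averaged and counted as 1 tumour, leaving 17. Erbb2 lay between 12.45 and 12.92 in every tumour. Snai2 was dim and overlapped between genotypes, at 6.28 to 6.79 (median 6.59) in KO and 6.68 to 7.09 (median 6.81) in WT. This probe set may lie outside the deleted part, so it is no firm check of the labels. The epithelial markers Krt8, Krt18 and Epcam were at or above 12.62 in all 17 tumours. These are whole tumours, in which fewer cells of a type and less RNA per cell cannot be told apart.

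The start of the matrix genes can be shown for 25 members, which have 31 windows in RefSeq's promoter table for GRCm38.p6, each running from 250 bases before to 50 after the start. The upstream 250 bases of 5 genes follow, each 5′ to 3′ on the gene's own strand. Vim, Sparc and Bgn were taken as the 3 members with the highest mean level that have a window. Col3a1 and Col1a2, chosen after their values were seen, represent the fibrillar chains that moved together. Capitals mark CCAAT, the box bound by NF-Y, its reverse complement ATTGG, and TATAAA.

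Vim, chr2:13574061-13574310, + strand: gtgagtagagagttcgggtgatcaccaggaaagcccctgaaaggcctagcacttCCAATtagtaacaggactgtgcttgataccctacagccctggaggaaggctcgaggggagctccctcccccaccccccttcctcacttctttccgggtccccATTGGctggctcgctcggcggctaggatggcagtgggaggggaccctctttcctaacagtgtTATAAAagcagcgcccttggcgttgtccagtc

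Sparc, chr11:55420081-55420330, - strand: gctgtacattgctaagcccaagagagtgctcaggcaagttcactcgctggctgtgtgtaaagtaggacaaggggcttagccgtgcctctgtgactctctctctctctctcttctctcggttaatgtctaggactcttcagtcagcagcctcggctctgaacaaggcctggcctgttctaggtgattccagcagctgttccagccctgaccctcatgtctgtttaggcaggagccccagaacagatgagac

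Bgn, chrX:73483351-73483600, + strand: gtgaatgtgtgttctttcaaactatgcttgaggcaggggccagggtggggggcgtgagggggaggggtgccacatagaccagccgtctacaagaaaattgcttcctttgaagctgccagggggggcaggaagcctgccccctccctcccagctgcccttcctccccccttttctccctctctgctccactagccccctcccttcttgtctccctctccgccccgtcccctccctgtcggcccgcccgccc

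Col3a1, chr1:45311288-45311537, + strand: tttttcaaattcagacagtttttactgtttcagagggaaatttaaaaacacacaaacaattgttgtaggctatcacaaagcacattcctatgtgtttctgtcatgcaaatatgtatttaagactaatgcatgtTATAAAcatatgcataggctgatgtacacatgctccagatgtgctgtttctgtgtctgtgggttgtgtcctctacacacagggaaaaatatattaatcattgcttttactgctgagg

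Col1a2, chr6:4505368-4505617, + strand: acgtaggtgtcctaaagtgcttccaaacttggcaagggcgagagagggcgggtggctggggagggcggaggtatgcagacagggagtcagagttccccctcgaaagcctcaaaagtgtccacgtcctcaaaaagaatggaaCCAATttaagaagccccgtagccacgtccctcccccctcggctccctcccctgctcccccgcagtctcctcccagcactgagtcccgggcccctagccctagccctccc

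The Vim window held CCAAT at -196 and in reverse complement at -94, counted to the first base of the match, and TATAAA at -32. Col3a1 held TATAAA at -117 and Col1a2 held CCAAT at -109, while the Sparc and Bgn stretches held neither motif. Across both strands CCAAT occurred in 25.8% of member windows and 33.8% of all 32851 windows, and TATAAA in 22.6% and 12.4%. The E-box CAGGTG, the sequence Snail factors bind, occurred on either strand in 3 of the 31 member windows (9.68%) and in 17.2% of all windows. The 3 matches were in Dpt, Pcolce and Col8a1, with the first base at -224, -238 and -18. They are shown with flanking bases and the E-box, or its reverse complement CACCTG, in capitals.

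Dpt, chr1:164796419-164796464, + strand: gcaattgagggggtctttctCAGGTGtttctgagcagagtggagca

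Pcolce, chr5:137611617-137611654, - strand: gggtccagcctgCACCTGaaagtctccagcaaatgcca

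Col8a1, chr16:57754738-57754775, - strand: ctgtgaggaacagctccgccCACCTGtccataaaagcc

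A match describes the letters in these windows and shows no binding. Dpt encodes dermatopontin, a small protein that links decorin to collagen fibrils, Pcolce encodes the enhancer of the enzyme that trims procollagen, and Col8a1 encodes a short-chain network collagen. Pcolce ran from 8.36 to 10.17 over the 17 tumours and Col8a1 from 8.17 to 11.41, both lowest in WT parous replicate 3 and highest in KO parous without metastasis replicate 2. The values of Dpt are given below.

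Most of the matrix genes rose and fell together from tumour to tumour. The mean log2 level over the 39 genes ran from 8.63 in WT parous replicate 3 to 10.58 in KO parous without metastasis replicate 2. These 2 tumours were the extremes: 22 members had their lowest value in the first and 22 had their highest in the second. The next lowest mean was 9.21, in WT parous replicate 4. At the high end the next was closer, 10.36 in WT nulliparous replicate 2. The SD over 17 tumours had a median of 0.52 across the members and 0.17 across all genes.

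Each member was set against the mean of the other 38 over the 17 tumours, as a description of these tumours only. The median Pearson r was 0.80. It was at least 0.9 for 14 members and at least 0.7 for 26. The closest followers were Col5a2 (r = 0.96), Col1a2 and Col8a1 (both 0.95), and Col3a1, Bgn, Sparc, Col6a1, Col6a2 and Col12a1 (0.94 each). For 6 members r was under 0.5: Col14a1 (0.40), Vcan (0.25), Fbln5 (0.21), Vim (0.20), Serpinh1 (0.13) and Thbs1 (0.13). For these 6 the label of a shared fibroblast programme does not describe the data.

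**Figure D1:**
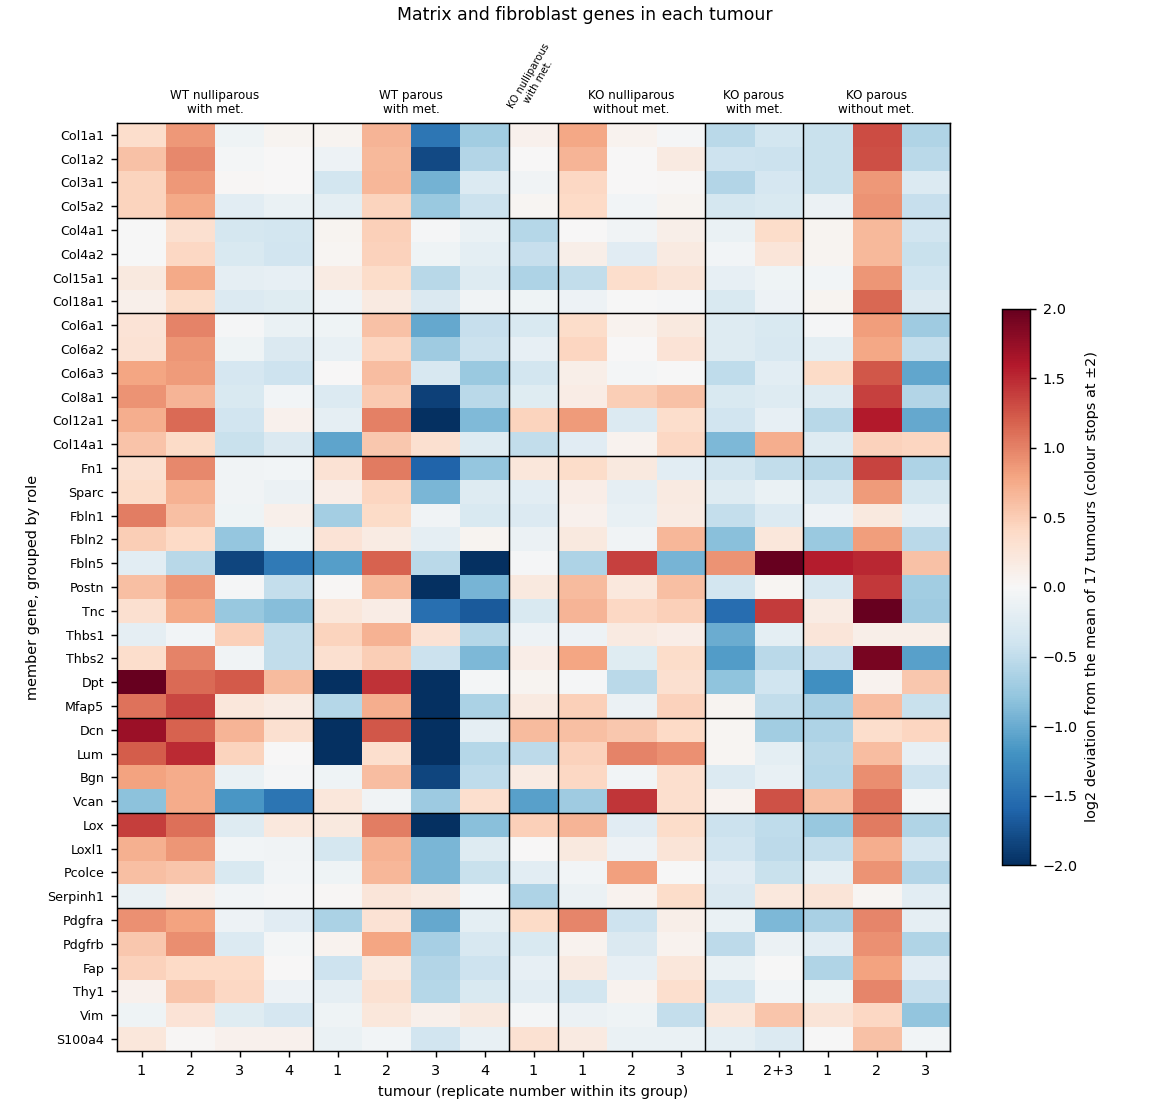
Levels of the 39 measured matrix genes (vertical axis, ordered by role) in the 17 tumours (horizontal axis, ordered by group); colour is the log2 level minus that gene's mean over the tumours. The column of KO parous without metastasis replicate 2 is high for most genes and that of WT parous replicate 3 low, with 22 members at their extreme in each.

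**Figure D2:**
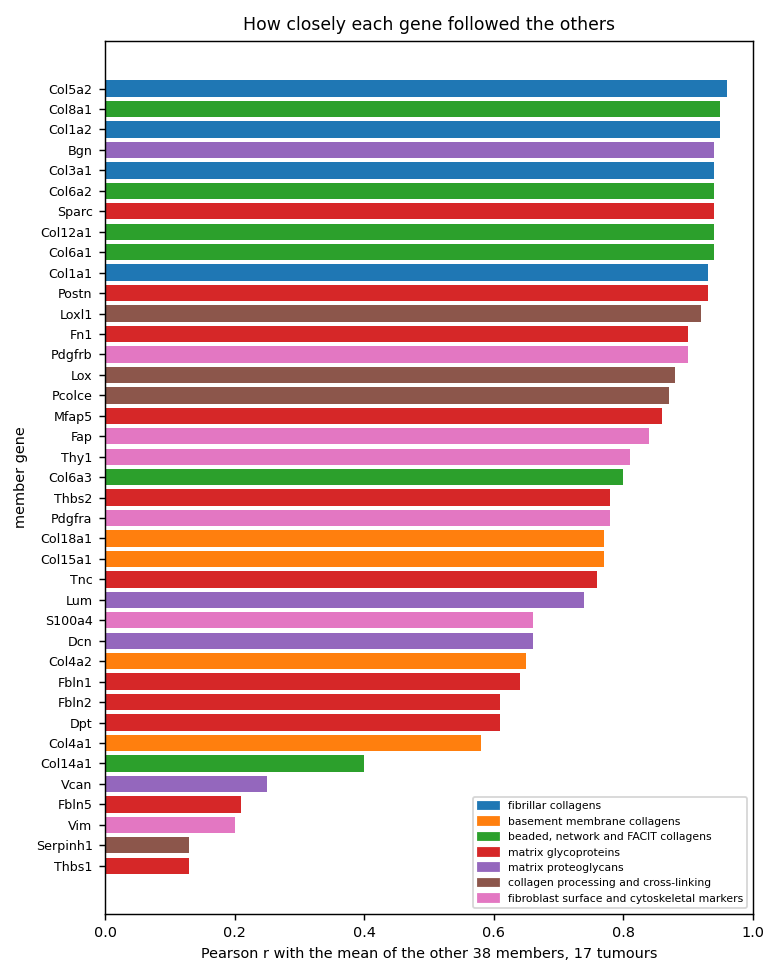
Pearson r of each of the 39 members (vertical axis, coloured by role) with the mean of the other 38 over 17 tumours (horizontal axis). Bars run from 0.96 for Col5a2 to 0.13 for Serpinh1 and Thbs1.

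Several chains of the same collagen protein tracked each other closely. Col1a1 and Col1a2, the 2 chains of type I collagen on different chromosomes, had r = 0.98. Without the 2 tumours farthest from the median of the first gene of a pair it was 0.97. Col4a1 and Col4a2, chains of the basement membrane sheet, had r = 0.97. They are neighbours on chromosome 8, with RefSeq starts 21 bases apart on opposite strands. Col6a1 and Col6a2 are also neighbours and had r = 0.97, and Col6a1 with Col6a3, on another chromosome, had r = 0.84. Col3a1 and Col5a2, next to each other on chromosome 1, had r = 0.94. Serpinh1, the collagen chaperone HSP47, had r = -0.01 with Col1a1. Serpinh1 also varied little, from 9.50 in the KO nulliparous tumour with metastasis to 10.49 in KO nulliparous without metastasis replicate 3.

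Type I collagen shows the spread within groups. Col1a1 read 10 and 10.16 in KO parous with metastasis, and 10.09, 11.84 and 9.93 in KO parous without metastasis. It read 10.62 in the KO nulliparous tumour with metastasis, and 11.30, 10.60 and 10.51 in KO nulliparous without metastasis. In WT it read 10.58, 11.21, 9.08 and 9.83 in parous mice and 10.88, 11.40, 10.45 and 10.58 in nulliparous mice. The highest and lowest tumours were both from parous mice, and the 4 groups with 3 or more tumours all overlapped each other. Over all tumours Col1a1 spanned 2.76 log2 units, a 6.78-fold range.

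Some members of other roles spanned more, while the proteoglycan Bgn spanned 2.75 log2 units. Decorin (Dcn) ran from 6.57 to 12.11, a 46.6-fold range and the widest of the 39. Dpt spanned 5.01, tenascin C (Tnc) 4.43, fibulin 5 (Fbln5) 4.31 and the cross-linking enzyme Lox 4.25 log2 units. At the narrow end, Serpinh1 and S100a4, a calcium-binding protein of fibroblasts and macrophages, each spanned 0.99.

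Dcn, Lum and Dpt departed from type I collagen in some tumours. Dcn and lumican (Lum), neighbours on chromosome 10, had r = 0.89, which was 0.69 without the 2 farthest tumours, and Dcn with Dpt had r = 0.90 (0.85). Lum with Dpt had r = 0.79 (0.53), and Dcn with Col1a1 had r = 0.61 (0.58), so without the farthest tumours the 3 genes were not all closer to each other than Dcn was to Col1a1. In WT parous replicate 1, Dcn was 7.55, Lum 5.78 and Dpt 6.09, while Col1a1 was 10.58, its median over the 17 tumours. In WT parous replicate 3 all were low, with Dcn at 6.57, Lum at 5.95, Dpt at 5.56 and Col1a1 at 9.08. The mean log2 level of these 3 genes minus that of the 4 fibrillar chains was -2.90 and -2.27 in those 2 tumours and between -1.37 and 0.69 in the other 15. The 3 genes are not a role list and were grouped with their values known, so this only describes these tumours. The proteoglycan Bgn was 11.66 in WT parous replicate 1, against a median of 11.68 over the 17 tumours.

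**Figure D3:**
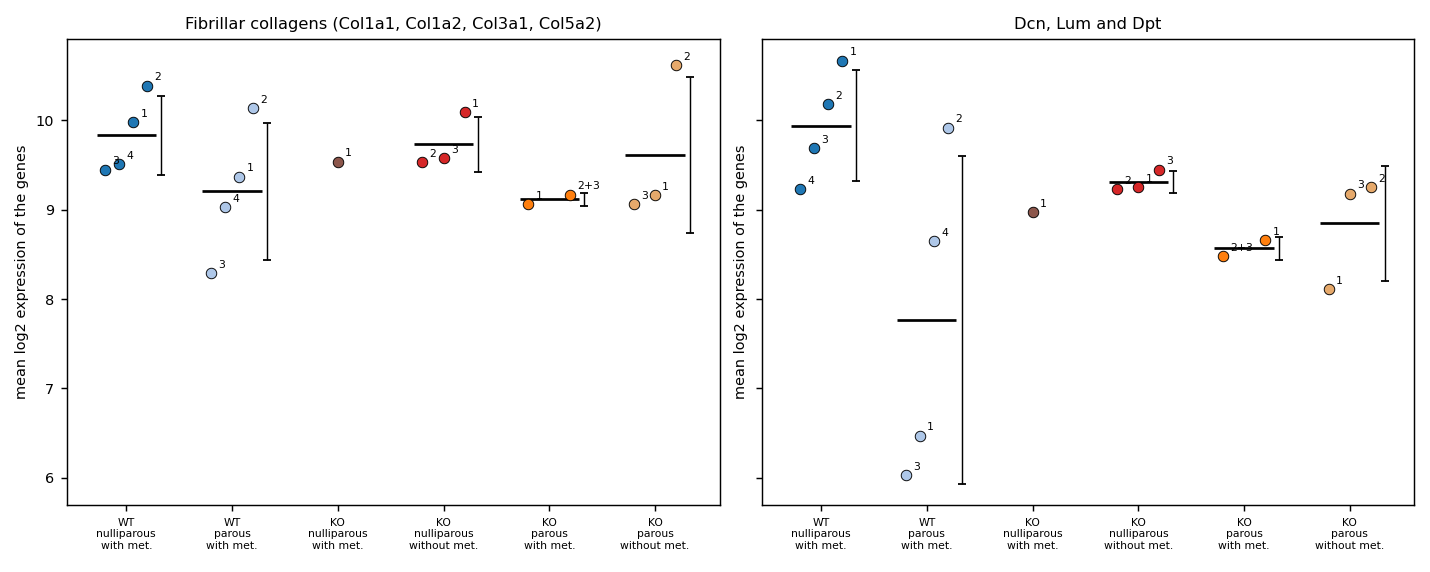
Mean log2 level (vertical axes) of the 4 fibrillar chains (left) and of Dcn, Lum and Dpt (right), by group (horizontal axis). Each point is a tumour and its number is the replicate. Lines are group means and side bars the SD. WT parous replicates 1 and 3 are lowest on the right, at 6.47 and 6.03. On the left they are at 9.37 and 8.29.

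The direct comparison with the most tumours was parity within WT, 4 parous against 4 nulliparous, all with metastasis. Dcn, Lum, Dpt and Mfap5 showed the widest differences, with lower means in parous tumours, and the type IV collagen chains showed little. No member passed an adjusted p under 0.05 (limma with Benjamini-Hochberg adjustment over all genes), while 370 of all genes (1.86%) passed in the lower direction and 108 (0.542%) in the higher. Of the members, 31 of 39 had a difference below 0, against 51.7% of all genes. The median difference was -0.45 for the members and -0.01 for all genes. An unadjusted p under 0.05 was reached by 7 members, all lower, against 9.81% of all genes lower.

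Lum read 5.78, 8.45, 5.95 and 7.54 in WT parous tumours and 9.32, 9.61, 8.56 and 8.12 in WT nulliparous ones. Replicate 2 of the parous group lay among the nulliparous values. The log2 difference was -1.98 (SE 0.53, 95% interval -3.12 to -0.83), or 0.25-fold, and missed the threshold in the limma fit (adjusted p = 0.071). With the dimmest 40% of genes left out of the table it passed, with an adjusted p of 0.0461.

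Dcn, which binds collagen fibrils and growth factors, read 7.55, 11.63, 6.57 and 10.22 in WT parous and 12.11, 11.58, 11.08 and 10.72 in WT nulliparous tumours. The groups overlapped through parous replicate 2. The difference was -2.38 (SE 0.84, adjusted p = 0.167 in limma). Without WT parous replicate 3 it was -1.57, and without WT nulliparous replicate 1 it was -2.13.

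Dpt read 6.09, 9.66, 5.56 and 8.18 in parous and 10.57, 9.34, 9.44 and 8.84 in nulliparous WT tumours, again with parous replicate 2 inside the nulliparous range. Its difference was -2.18 (SE 0.75, adjusted p = 0.154 in limma). When WT parous replicate 2 was left out, the differences of Lum (-2.48), Dcn (-3.26) and Dpt (-2.94) all passed, with adjusted p of 0.0282, 0.0389 and 0.0395 in limma. With any other WT tumour left out none of the 3 did. Over the fits with each tumour left out, 57 to 770 of all genes passed in this comparison. The share of all genes passing without WT parous replicate 2 is not given here, so these 3 passes have no background beside them. Mfap5, a microfibril glycoprotein, had a difference of -1.43 (SE 0.53), which was -0.86 without WT parous replicate 3.

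S100a4 was the member whose parous WT values (6.42 to 6.76) lay wholly below the nulliparous ones (6.83 to 7.04), against 7.63% of all genes. That difference was -0.29 (SE 0.13, adjusted p = 0.303 in limma). This gene was dim in every tumour, at 6.42 to 7.40, below the array medians of 7.60 to 7.67. Both S100a4 and Fap were among the dimmest 40% of genes. Fap, a serine protease of activated fibroblasts, averaged 6.62 ± 0.35 (SD, n = 4) in the parous WT group and 7.23 ± 0.21 (SD, n = 4) in the nulliparous WT group. Fibulin 1 (Fbln1) averaged 8.14 ± 0.45 and 8.72 ± 0.50 (SD, n = 4 each).

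By role, all 4 fibrillar chains had differences below 0, from -0.84 (Col1a2) to -0.45 (Col5a2), as did all 6 beaded, network and FACIT collagens, from -0.99 (Col12a1) to -0.17 (Col14a1). The 4 basement membrane collagens had a median of 0.04, with Col4a1 at 0.20 and Col15a1 at -0.22. Of the 11 glycoproteins 8 were below 0. The large proteoglycan versican (Vcan) was on the other side, at 0.61. The processing genes had Lox at -1.23, Loxl1 and Pcolce below 0 and Serpinh1 at 0.13. None of these passed.

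In KO mice without metastasis, 3 parous against 3 nulliparous, no gene of the 19938 passed and 655 (3.29%) reached an unadjusted p under 0.05 in limma, none of them a member. The median member difference was -0.09, with 24 of 39 below 0 against 47.4% of all genes. Lum had a difference of -0.82 (SE 0.61), from 8.57, 9.10 and 9.02 in nulliparous tumours and 7.55, 8.73 and 7.95 in parous ones. Fbln5 had 1.29 (SE 0.78). S100a4 and Col18a1, the collagen that yields endostatin, had 0.20 and 0.35, and -0.01 and -0.08 without KO parous without metastasis replicate 2. Without that tumour the median was -0.51.

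The difference of the 2 parity effects, KO minus WT, was tested as an interaction. Its median over the members was 0.47, with 32 of 39 above 0 against 54.9% of all genes, and no gene passed. Dpt had 2.05 (SE 1.14, 95% interval -0.41 to 4.52), Dcn 1.93 (SE 1.29), Lum 1.16 (SE 0.81), Fbln1 0.51 (SE 0.37) and S100a4 0.49 (SE 0.20, adjusted p = 0.459 in limma). S100a4 was the member under an unadjusted p of 0.05, against 5.75% of all genes in that direction. Dcn was 1.12 without WT parous replicate 3, and S100a4 was 0.28 and the median over the members -0.02 without KO parous without metastasis replicate 2. The WT groups here also differ from the KO groups in metastasis status.

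**Figure D4:**
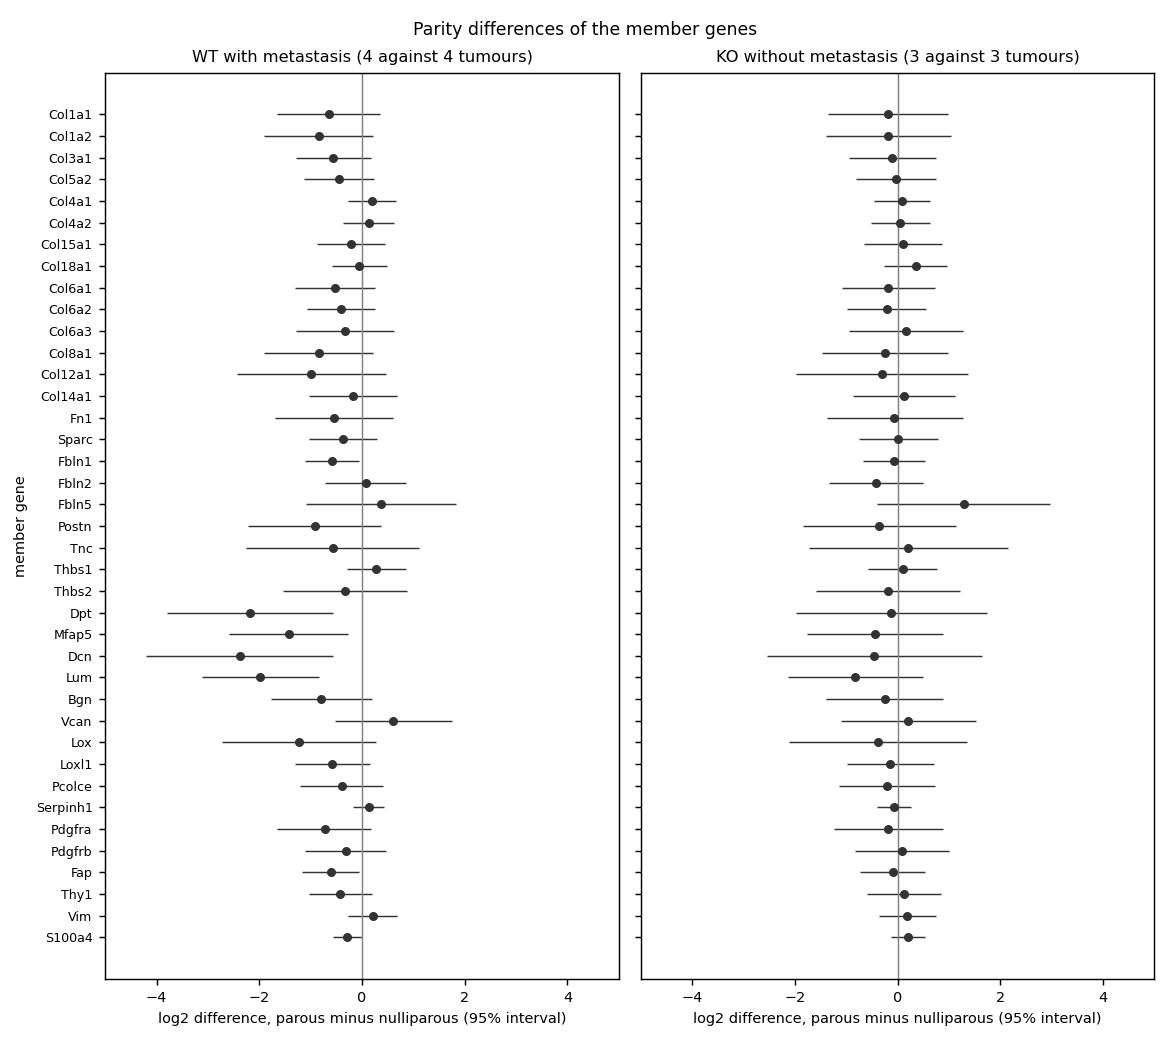
Log2 difference of each member (vertical axis) between parous and nulliparous tumours (horizontal axis), in WT with metastasis (left, 4 against 4) and KO without metastasis (right, 3 against 3); points are limma estimates and bars 95% intervals. Dcn, Dpt, Lum and Mfap5 lie farthest left in WT, at -2.38, -2.18, -1.98 and -1.43, and the KO intervals all include 0.

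Fbln5, an elastic fibre assembly protein, was the member with the largest KO against WT difference in the additive fit and in both comparisons of parous mice. In nulliparous mice Dpt (-1.42) and Vcan (1.02) differed by more. In KO tumours it read 10.68 and 12.00 (parous with metastasis), 11.36, 11.30 and 10.38 (parous without), 9.76 (nulliparous with) and 9.17, 11.16 and 8.86 (nulliparous without). In WT it read 8.69, 10.97, 9.25 and 7.69 in parous and 9.57, 9.23, 7.96 and 8.37 in nulliparous tumours. The medians were 10.68 over 9 KO and 8.96 over 8 WT tumours, and the ranges overlapped. The parous KO tumours were between 10.38 and 12.00, and WT parous replicate 2 reached that range.

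In the additive fit of genotype, parity and metastasis, 28 of 39 members were below 0 in KO relative to WT, against 62.0% of all genes, with a median of -0.15, and no gene passed. Fbln5 differed by 1.70 between KO and WT (SE 0.64, 95% interval 0.34 to 3.06, 3.25-fold). Its unadjusted p in limma was 0.0173 and its adjusted p 0.999. It was the member under 0.05 before adjustment, against 4.44% of all genes in either direction. In parous mice with metastasis, where the genotypes match in both other respects, the difference was 2.19 (SE 0.83, adjusted p = 0.825 in limma), and 1.53 without the averaged KO pair. Against WT parous tumours, the KO parous tumours without metastasis gave 1.86 (SE 0.73), and the nulliparous comparison gave 0.95 (SE 0.73), or 0.23 without KO nulliparous without metastasis replicate 2. These comparisons share tumours and are not independent of each other.

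Versican, a hyaluronan-binding proteoglycan of provisional matrix, had some likeness to Fbln5 (r = 0.60 over 17 tumours) and little to Col1a1 (r = 0.14). Vcan lay between 8.67 and 11.18 in KO (median 10.09) and between 8.29 and 10.50 in WT (median 9.35). Its largest difference, 1.02 (SE 0.57), was in nulliparous mice, KO without against WT with metastasis, and was 0.49 without KO nulliparous without metastasis replicate 2. Thrombospondin 1 (Thbs1), a secreted inhibitor of angiogenesis, read 11.99 and 12.79 in KO parous with metastasis and 13.43, 13.68, 13.28 and 12.41 in WT parous. That difference was -0.81 (SE 0.32, adjusted p = 0.846 in limma), and -0.41 without KO parous with metastasis replicate 1. Over the genotypes the Thbs1 medians were both 13.1.

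**Figure D5:**
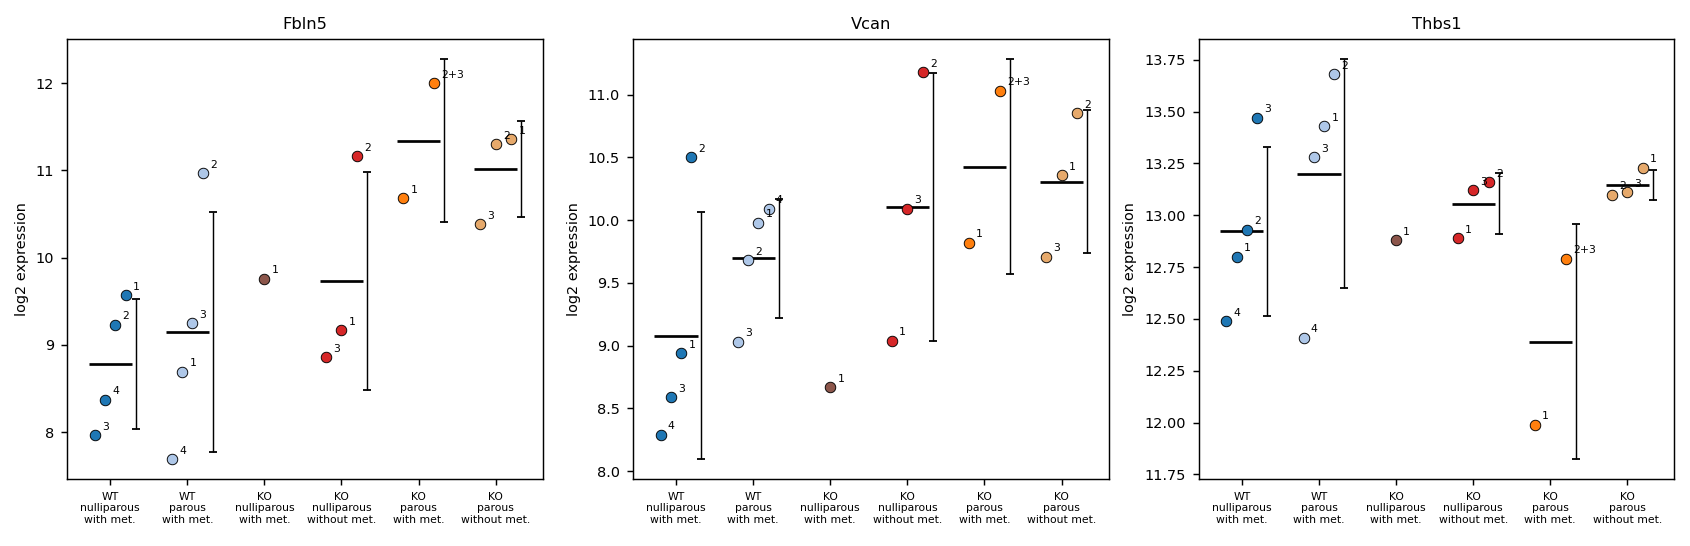
Log2 levels of Fbln5, Vcan and Thbs1 (vertical axes) in each tumour by group (horizontal axis); each point is a tumour and its number is the replicate. KO parous tumours lie between 10.38 and 12.00 for Fbln5, and WT tumours between 7.69 and 10.97.

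In the matched genotype comparison (2 KO against 4 WT parous tumours with metastasis) the members were divided, Fbln5 and Thbs1 included: 18 were above 0 and 21 below, with a median of -0.04, against 58.4% of all genes below. All 4 proteoglycans were above 0, with Lum at 1.10 (SE 0.65), Dcn at 1.07 (SE 1.03) and Vcan at 0.73 (SE 0.65), and Bgn between them and 0. Dcn was 0.27 without WT parous replicate 3, Vcan 0.12 without the averaged KO pair and Lum 0.72 without WT parous replicate 1. No gene of the whole array passed, and 1142 (5.73%) reached an unadjusted p under 0.05 in limma. Vim, the intermediate filament of mesenchymal cells, was the member whose groups did not overlap (13.14 and 13.47 in KO, 12.84 to 13.14 in WT), against 6.27% of all genes. Its edge values were equal to 2 decimals.

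KO parous tumours without metastasis had higher means than WT parous tumours with metastasis for 35 of 39 members (52.8% of all genes), with a median of 0.32, and no gene of the array passed. Fbln5 and S100a4 were the members with an unadjusted p under 0.05 in limma, against 4.1% of all genes in that direction. Tnc read 9.92, 12.49 and 9.04 against 9.97, 9.89, 8.24 and 8.07, a difference of 1.44 (SE 0.84), or 0.44 without KO parous without metastasis replicate 2. Without that tumour the median over the members was -0.07. S100a4 had 0.36 (SE 0.14, adjusted p = 0.851 in limma), with 6.80, 7.40 and 6.75 in KO, and 0.14 without it. In nulliparous mice the same pair of genotypes and metastasis states gave a median of -0.08, with 25 of 39 below 0 against 53.4% of all genes, and no member was among the 49 genes (0.246%) that passed. Dpt was lower there in all 3 KO tumours (8.19, 7.68 and 8.53) than in any of the 4 WT tumours (8.84 to 10.57), as were 6.8% of all genes; the difference was -1.42 (SE 0.81, adjusted p = 0.511 in limma).

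Metastasis could be compared within KO parous mice, 2 tumours with against 3 without. Here 34 of 39 members were below 0 (61.1% of all genes), with a median of -0.36, which was 0.08 without KO parous without metastasis replicate 2. No gene of the array passed, and 805 (4.04%) reached an unadjusted p under 0.05 in limma. S100a4 (-0.41, SE 0.17) and Thbs1 (-0.76, SE 0.34) were the members among them. S100a4 was -0.19 without KO parous without metastasis replicate 2, and Thbs1 -0.36 without KO parous with metastasis replicate 1. Those 2 and Fbln1, at 7.82 and 8.03 with metastasis and 8.20, 8.49 and 8.13 without, had groups that did not overlap, against 10% of all genes. Thbs2, a close relative of Thbs1, had -0.94 (SE 0.72) and -0.05 without KO parous without metastasis replicate 2.

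The additive fit over all 17 tumours gave a parity median of -0.29, with 29 of 39 members below 0 against 50.5% of all genes, and no gene passing. Lum (-1.17, SE 0.41), Dcn (-1.46, SE 0.59), Mfap5 (-0.91, SE 0.37) and Dpt (-1.19, SE 0.54) reached an unadjusted p under 0.05 in limma, against 7.4% of all genes in that direction. The receptor Pdgfra, which marks fibroblasts, had -0.56 (SE 0.28). For metastasis 36 of 39 were below 0 against 60.2% of all genes, with a median of -0.28, and no gene passed. That median was -0.06 without KO parous without metastasis replicate 2. Every WT tumour had metastasis, so the metastasis term rests on KO tumours. With metastasis these were 2 parous and 1 nulliparous, and without it 3 parous and 3 nulliparous. The parous ones are the tumours of the KO metastasis comparison above. Serpinh1 was the member with an unadjusted p under 0.05 in limma, against 3.77% of all genes in that direction, at -0.33 (SE 0.15), and Col15a1 had -0.38 (SE 0.30). In that fit Serpinh1 was -0.13 without the KO nulliparous tumour with metastasis, where it was lowest.

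Other matrix genes were read from lists by role, of which none of the 76 genes passed in the WT parity comparison. Of all genes, 1.86% passed there in the lower direction and 0.542% in the higher, and 51.7% had differences below 0. All 13 elastic fibre and small proteoglycan genes had differences below 0, with a median of -0.66. Examples are Ltbp2, a TGF-beta binding protein of microfibrils, at -1.04 (SE 0.48), and the microfibril protein Mfap4 at -0.76 (SE 0.31). Of 13 laminins and basement membrane linkers 10 were below 0, with agrin (Agrn) at -0.61 (SE 0.19) and Lama2 at -0.74 (SE 0.29). Other collagens were divided, 10 above and 7 below 0, with the fibrillar minor chain Col11a1 at 1.21 (SE 0.33, adjusted p = 0.073 in limma). The collagen modifying enzymes were also divided, 10 against 7, with the prolyl hydroxylase P4ha1 at 0.74 (SE 0.19, adjusted p = 0.0649 in limma). Of 12 matrix receptors 8 were below 0, with the collagen receptors Ddr2 at -0.67 (SE 0.34) and Itga1 at 0.46 (SE 0.14). Among 4 PDGF ligands, which act on Pdgfra and Pdgfrb, Pdgfa was at 0.30 (SE 0.17).

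Over the 17 tumours, the mean of the laminin list had r = 0.91 with the mean of the matrix members and the elastic fibre list 0.85, while the other collagens had 0.15. The 10 genes outside the 40 most like the members' mean were Srpx2, Fstl1, Sulf1, Adam23, Mrc2, Ctsk, Ccdc80, Serpinf1, Antxr1 and Dpysl3, with r from 0.97 to 0.93. Of 19899 other genes, 33 (0.166%) had r of at least 0.9, and the median was -0.06.

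Marker lists of other cell types differed in how far they followed the members' mean over the 17 tumours. The endothelial list had r = 0.86 (0.81 without the 2 farthest tumours), pericytes and smooth muscle 0.81 (0.68), basal epithelium 0.70 (0.43) and macrophages 0.67 (0.48). Skeletal muscle had 0.41 (0.38), adipocytes 0.32 (0.40), luminal epithelium 0.25 (-0.13) and T and NK cells 0.02 (0.04). The pericyte and smooth muscle list and the basal list share Acta2 and Myh11, so their values are not independent of each other. In the WT parity comparison 51.7% of all genes had differences below 0, and 1.86% passed in that direction. All 15 endothelial, all 11 T and NK cell, all 11 adipocyte and all 12 skeletal muscle markers were below 0, as were 13 of 14 macrophage markers. Their medians were -0.19, -0.41, -0.48, -0.77 and -0.54. Among them the cytotoxic granule gene Nkg7 (-1.48, SE 0.34, adjusted p = 0.0385), the NK receptor Ncr1 (-0.40, SE 0.09, adjusted p = 0.042) and the adipocyte lipase Lipe (-0.70, SE 0.14, adjusted p = 0.0274) fell in the limma fit. Of 12 luminal markers 7 were below 0, with a median of -0.06, and of 10 basal markers 6, with a median of -0.03. The pericyte list had 7 of 10 below 0.

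Mean marker levels per tumour overlapped between parous and nulliparous WT mice for endothelium (8.20 to 8.97 against 8.48 to 9.05), macrophages (8.82 to 9.79 against 9.37 to 9.75), adipocytes (7.62 to 8.08 against 7.97 to 8.89) and skeletal muscle (7.15 to 8.27 against 7.09 to 10.80). For T and NK cells they did not, at 6.52 to 6.70 against 6.74 to 7.87. The highest muscle value, 10.80, was in WT nulliparous replicate 1, which also had the highest Dcn, Dpt and Fbln1 of all tumours, at 12.11, 10.57 and 9.33. The rest of the WT nulliparous tumours had muscle means between 7.09 and 7.87, within the parous range but for its lower end. KO parous without metastasis replicate 2, highest for most matrix genes, also had the highest list means of all 17 for endothelial (9.27), pericyte (10.17) and macrophage (10.11) markers. The same held for the means of the luminal (11.38) and basal (8.26) epithelial lists. Not every luminal marker was high in that tumour. Krt18 was 12.78, the lowest of all 17, while Epcam was 12.64 (12.62 to 12.83 over all tumours) and Krt8 13.17 (12.86 to 13.66). The part of these cell types in the matrix differences was not tested.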

How the data were processed

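Values were the deposited log2 probe set levels of the series' value table. The submitters' processing notes list RMA (background correction, quantile normalization and summary over probes) and the oligo package. Versions are not given in the sources used here. Trizol total RNA was fragmented and biotinylated, per the labels' protocols. RMA compresses dim genes, so their differences can be understated, and an array gives no read depth: the number of arrays limits the precision. Of 35556 probe sets, 21789 had 1 gene, 1621 several and 12146 none, and 19855 of the 19938 genes matched RefSeq genes of GRCm38.p6.

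Each gene was tested 2-sided in R 4.3.3 by limma 3.58.1, through lmFit and eBayes, on 6 group means, or on genotype, parity and metastasis together, with Benjamini-Hochberg adjustment over 19938 genes. Averaging the near-identical arrays was decided by their difference. The labels call the arrays biological replicates. The code was tested on simulated data. The members and gene lists were chosen with earlier results of these data known, and of 178 entries in the other lists 171 were matched. Members named with values came mainly from the 5 with the smallest unadjusted p in each comparison. Not all 5 are given for every comparison. For example, Vim is left out of both metastasis comparisons, where it was above 0, at 0.42 in KO parous mice and 0.34 in the additive fit. Also named were up to 2 genes per list without a passing gene and up to 4 passing genes otherwise, the 10 most alike genes and the label checks. Genes of the lists are named for the WT parity comparison only, and for cell type lists only where they passed. Alternatives covered normalization, the probe set per gene, dim genes, the variance prior, the samples in the fit, the averaged arrays, a replicate block and each tumour left out. Genes named as examples of a role beyond this rule were chosen after their values were seen.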

Additional observations from a re-analysis of the deposited data

Results flagged for a closer look

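Fap, the fibroblast activation protease, was 6.92 in WT nulliparous replicate 4 and between 7.31 and 7.38 in the other 3 tumours of that group. The gap was 0.844 of the group's range, above Dixon's 95% critical value of 0.829 for 4 samples. It was 1 of 94 groups of values tested in this way, and chance alone marks about 1 in 20.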

How the results depend on the processing

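Of 2050 recomputed values for 80 results, 1995 were counted as unchanged, by loose rules that do not measure stability. A gene's difference had to keep its direction and side of the threshold, and a count to stay within 1.5 times. No member passed in the report, so a difference could shrink towards 0 and count as unchanged. Thbs2 did so in the KO metastasis comparison (-0.94 to -0.05). A median over the members had to move by less than 0.52, the SD within groups of the members' mean. The medians in the report lay between -0.45 and 0.47, all smaller in size than that limit. Some medians crossed 0 within that limit when a tumour was left out, running from -0.51 to 0.14 for KO parity, -0.22 to 0.17 for KO against WT in parous mice with metastasis, -0.58 to 0.08 for metastasis in KO, -0.20 to 0.10 and -0.07 to 0.62 for KO without against WT with metastasis in nulliparous and parous mice, and -0.02 to 0.70 for the interaction. In WT parity, members passing were 0 in the report, 1 (Lum) with the dimmest 40% of genes left out, and 0 to 3 with each tumour left out, 3 without WT parous replicate 2. Genes passing there numbered 878 with only the groups compared against 478, and 57 to 770 with each tumour left out. With each tumour left out, genes passing numbered 0 to 2 for KO parity, 0 to 17 for KO against WT in parous mice with metastasis, 0 to 5 for metastasis in KO, 0 to 2 for KO without against WT with metastasis in parous mice, 0 to 8 for the interaction, 0 to 369 for additive parity and 0 to 1 for additive metastasis. For KO without against WT with metastasis in nulliparous mice they numbered 49, or 0 to 179 with each tumour left out, 128 with the 18 arrays apart and 1 with only the groups compared. With the 18 arrays apart, additive parity had 55 and additive metastasis 2. The replicate numbers gave no visible pairing of the tumours. Deviations of same-numbered tumours had a median r of -0.006 over 31 pairs (-0.323 to 0.407). Over 84 other pairs it was 0.013 (-0.392 to 0.491). This check cannot show whether same-numbered tumours were handled together. With the replicate block, genes passing were 2 in that nulliparous comparison, 1 for KO against WT in parous mice with metastasis and 1 for additive genotype. In KO parity with each tumour left out, S100a4 ran from -0.01 to 0.32 and Col18a1 from -0.08 to 0.65, and both reversed without KO parous without metastasis replicate 2. The cause of these shifts was not tested. The number of tumours, 2 to 4 per group compared, limits what can be told apart.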
